A study of Rattus norvegicus with 6 samples.

Results

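Collagen chains in rat pancreatic islets were taken as every gene row whose symbol consists of Col, a number, the letter a and a number. The rule found 25 of 17055 gene rows and used no measured value. Of these rows 10 encode fibrillar chains, 3 encode chains of type IV, the collagen of basement membranes, and 12 encode other collagens. Chains without a row, among them Col4a2, Col6a1 and Col6a3, were not analysed here. Polyadenylated RNA of intact islets, the clusters of hormone-secreting cells in the pancreas, was sequenced from Sprague-Dawley rats described as controls. P10 islets came from rats aged 10 days (1.5 weeks in the labels), and adult islets from male rats aged 3 months (12 weeks), with 3 biological replicates of each age in the labels. The labels give no sex for the P10 rats, so age and any difference in sex cannot be told apart. Whether several pups were pooled for a P10 replicate is not stated either, so a p-value covers only how these libraries vary, which may be technical. The comparison addresses postnatal maturation of beta cells, the insulin-producing cells named in the title of the series.

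A collagen molecule is a rope of 3 chains wound together, with glycine recurring along each chain. Fibrillar collagens assemble into the fibrils of connective tissue and are secreted mainly by fibroblasts, in the pancreas also by stellate cells. Type IV collagen forms the sheet-like network of basement membranes, and in rodent islets the basement membrane that beta cells touch is largely that of the capillaries. The remaining collagens coat fibrils, build beaded filaments, anchor epithelia or span the plasma membrane.

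Reads assigned to genes ran from 3307415 to 6477825 per library, and 3 counts, the limit that a count of 0 allows, corresponded to between 0.407 and 1.10 CPM (counts scaled to library size, with factors from the trimmed mean of M values, TMM). The insulin genes Ins1 and Ins2 took between 28.35% and 33.6% of gene counts at P10 and between 46.65% and 52.3% in adults. Connective tissue markers were present at both ages. The summed level of 15 fibroblast and stellate cell markers, none of them a collagen, lay between 804 and 995 CPM at P10 and between 181 and 220 CPM in adults (Cd34 was the 1 member at 0). In bulk RNA of this kind, fewer cells of a type and less RNA per cell cannot be told apart. A library with more acinar RNA than the others of its group was adult replicate 3, with 4776 CPM summed over 12 acinar markers against 1239 and 1369 CPM in adult replicates 1 and 2. The same sum was 3422.5, 4795 and 3208 CPM in P10 replicates 1, 3 and 4. Every P10 library was thus above adult replicates 1 and 2, and P10 replicate 3 was the highest of its group.

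Adult islets had lower mRNA levels of chains of the interstitial fibrillar collagens I, III and V and of collagens IV, VI, VII and XVIII. The level of 1 chain, Col27a1, was higher. For collagens I, IV and VI the lower level rests on Col1a1, Col4a1 and Col6a2 alone. Col1a1 was 14.97-fold and Col3a1 11.2-fold lower in adults, whereas Col27a1 was 2.44-fold higher. The tested chains of collagens VIII, IX, XI, XIII, XIV, XV, XVI and XVII did not pass the test, and neither did the type IV chain Col4a3. Of the 25 chains, 9 were lower and 1 was higher in adults, and 10 did not pass. The test was edgeR's quasi-likelihood test with an adjusted p, given as FDR, under 0.05. The other 5 had too few counts to be tested. Among all 10124 genes tested, 13.8% were lower and 12.5% were higher. The 20 tested chains had a median log2 fold change of -1.43, against -0.03 over all genes tested. This filter keeps a chain that is high in 1 group alone, so the count describes these chains and is not set against other lists. Levels fell at least 8-fold for 4 chains, Col1a1, Col3a1, Col5a2 and Col7a1, as they did for 1.71% of all genes tested. Without any 1 of the 6 libraries, 9 or 10 chains were lower and 1 was higher. The tenth was Col13a1, without adult replicate 2.

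**Figure D1:**
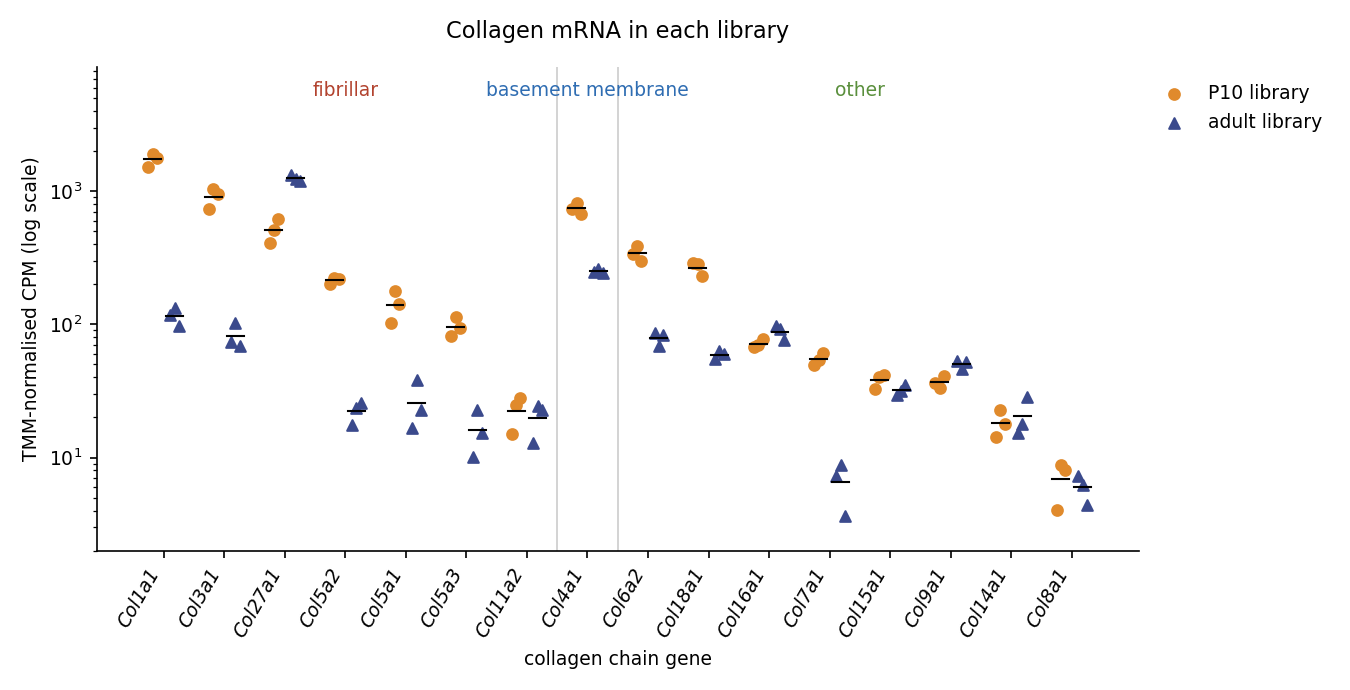
Normalised CPM (log axis) of the 16 collagen chains averaging at least 5 CPM, with 1 circle for each P10 library, 1 triangle for each adult library and a bar at the group mean. The adult triangles of Col1a1 lie between 97.9 and 133 CPM, below P10 circles between 1525 and 1909.8 CPM, and those of Col27a1 lie above all P10 circles.

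Type I collagen is the main fibril of connective tissue, and its chain Col1a1 stood at 1525, 1909.8 and 1777 CPM in P10 replicates 1, 3 and 4. In adult replicates 1, 2 and 3 it stood at 119, 133 and 97.9 CPM. Every adult library was below every P10 library by a wide margin, with a log2 fold change of -3.90 ± 0.15 (SE; edgeR FDR = 8.18e-11). The row of Col1a2, which encodes the partner chain of the same molecule, held no read in any library, next to 31415 P10 reads and 1239 adult reads of Col1a1. Why Col1a2 is listed at 0 was not tested, and no level is given for it. In the GRCr8 annotation Col1a1 overlaps Sgca, which itself had 26 P10 reads and 4 adult reads.

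Type III collagen forms fine fibrils together with type I in soft tissues. Col3a1, its single chain, was at 729, 1035 and 958 CPM at P10 and at 73.3, 103 and 68.7 CPM in adults, again without overlap. The log2 fold change was -3.48 ± 0.18 (SE; edgeR FDR = 2.25e-09). The ratio of Col3a1 to Col1a1 reads within a library, which does not depend on the scaling between libraries, was 0.478, 0.542 and 0.539 at P10 and 0.618, 0.771 and 0.702 in adults. The groups did not overlap, and the adult ratio was 1.34-fold higher (exact two-sided permutation p = 0.1, the smallest that 3 against 3 libraries allow, and 0.1 after Benjamini-Hochberg adjustment over the 3 ratios tested). Col1a1 reads were thus lower relative to Col3a1 reads in each adult library, by a small amount beside the fall of both.

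Type V collagen is a minor fibrillar collagen that starts fibrils and limits their width, and its 3 chains all fell. Col5a2 went from 199.6, 223 and 219 CPM at P10 to 17.6, 23.5 and 25.9 CPM in adults, a 9.46-fold fall (log2 fold change -3.24 ± 0.16, SE; edgeR FDR = 2.25e-09). Col5a1 went from 102, 177 and 143 CPM to 16.6, 38.1 and 23.0 CPM, 5.49-fold lower (edgeR FDR = 4.74e-06). Col5a3 went from 81.9, 113 and 93.2 CPM to 10.0, 22.7 and 15.2 CPM, 6.04-fold lower (edgeR FDR = 1.29e-06). For all 3 genes the adult libraries stayed below the P10 libraries, and for Col5a1 and Col5a3 adult replicate 2 was the highest of its group. The ratio of Col5a2 to Col5a1 reads was 1.96, 1.26 and 1.53 at P10 and 1.06, 0.615 and 1.13 in adults. It was 1.72-fold lower in adults with no overlap (exact two-sided permutation p = 0.1, 0.1 adjusted over the 3 ratios). The ratio of adult replicate 1 rests on 51 and 48 reads. Without adult replicate 2 the log2 change of the ratio was -0.51 instead of -0.79. Whether the 2 chains fell by different amounts is not settled by these values. For Col5a3 over Col5a1, a pair chosen after the values were seen and not tested, the groups overlapped, at means of -0.53 ± 0.19 and -0.69 ± 0.08 on the log2 scale (SD, n = 3).

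The fibrillar collagens XI and II are known from cartilage. Col11a2 was at 14.9, 24.8 and 27.9 CPM at P10 and at 12.8, 24.2 and 22.8 CPM in adults, with overlapping groups and a log2 fold change of -0.16 ± 0.30 (SE; edgeR FDR = 0.738). Col11a1 had 27 reads at P10 and 13 in adults, and Col2a1 had 6 and none, too few for a test.

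Col27a1 encodes the single chain of type XXVII collagen, a fibrillar collagen of thin filaments that is best known from cartilage. It was the 1 fibrillar chain that rose, beside 5 that fell, 1 that did not pass (Col11a2) and 3 that were not tested (Col1a2, Col2a1 and Col11a1). Its level was 408, 510.4 and 620.2 CPM at P10 and 1314, 1229.7 and 1201 CPM in adults. Every adult library was higher than every P10 library, with a log2 fold change of 1.28 ± 0.14 (SE; edgeR FDR = 7.00e-06). The fold was between 2.23 and 2.73 when single libraries were left out. The P10 libraries were spread more widely (513 ± 106 CPM, SD, n = 3) than the adult libraries (1248 ± 58.7 CPM). Of 14 markers of endocrine islet cells, 9 were also higher in adults and 1 was lower, with a median log2 fold change of 0.94. Among all genes tested 12.5% were higher and 13.8% lower. With library totals alone 7 of these markers were higher and 4 lower (median 0.45), where 3.39% of all genes were higher and 35.7% lower. The part of endocrine cells in the Col27a1 result was not tested. In the GRCr8 annotation the microRNA gene Mir455 lies within Col27a1, and its own row held no reads.

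**Figure D2:**
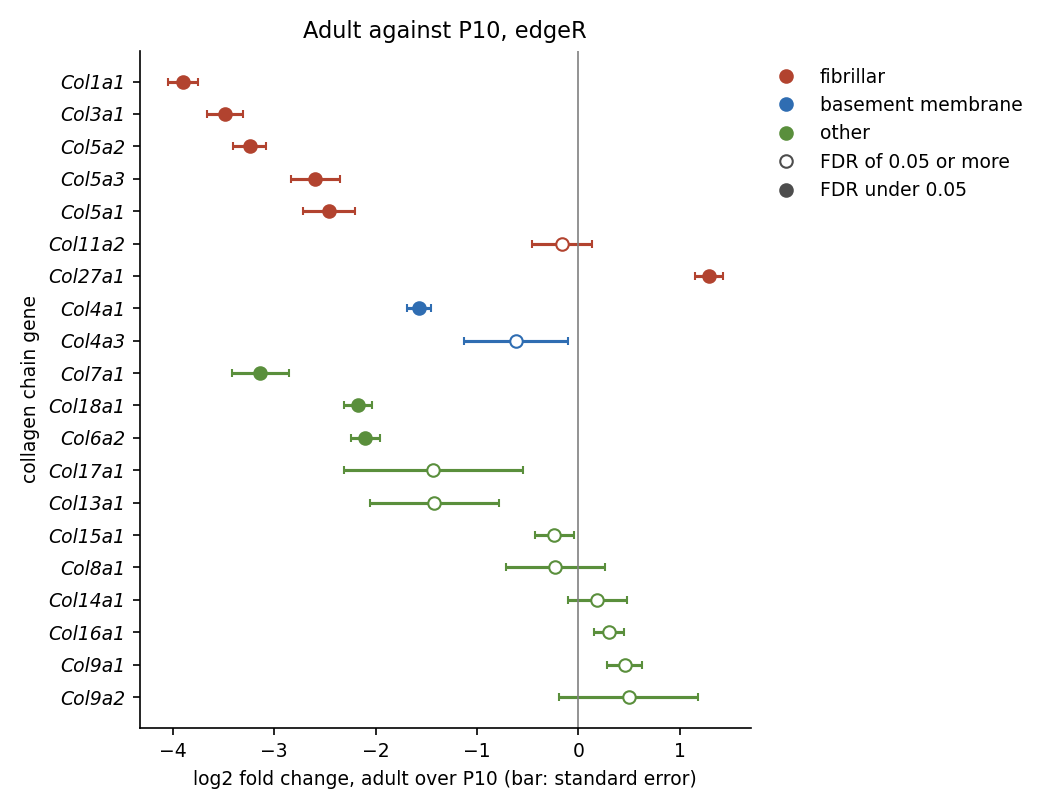
Log2 fold change of adult over P10 (horizontal axis) for the 20 collagen chains tested, with bars for the standard error and filled points for an edgeR FDR under 0.05. Col27a1, at 1.28, is the 1 filled point to the right of 0, and Col1a1, at -3.90, lies farthest to the left.

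Of the type IV chains, Col4a1, which is part of the basement membrane of nearly all tissues, stood at 740.5, 815 and 677 CPM at P10. In adults it was at 248, 259 and 242 CPM. The groups were well apart and the level was 2.98-fold lower (log2 fold change -1.58 ± 0.12, SE; edgeR FDR = 1.34e-07). Col4a3, a chain of the kidney and lung basement membrane, was at 4.61, 6.84 and 6.80 CPM at P10 and at 3.80, 3.30 and 4.59 CPM in adults. Its groups just failed to overlap but it did not pass (log2 fold change -0.62 ± 0.52, SE; edgeR FDR = 0.415). The partner chain Col4a4 had 7 reads at P10 and 12 in adults and was not tested. The ratio of Col4a1 to Col1a1 reads, a pair chosen after the values were seen and given without a test, was between 0.381 and 0.486 at P10 and between 1.95 and 2.47 in adults. Col4a1 thus fell less than Col1a1 in every adult library.

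Collagens XV and XVIII lie in the basement membrane zone and carry sugar chains, and the end of collagen XVIII can be cut off as endostatin. Col18a1 was at 287, 283 and 232 CPM at P10 and at 54.6, 63.0 and 60.04 CPM in adults, 4.51-fold lower (log2 fold change -2.17 ± 0.14, SE; edgeR FDR = 2.17e-08). Col15a1 was at 33.0, 39.97 and 41.5 CPM at P10 and at 29.4, 31.9 and 35.1 CPM in adults, with overlapping groups (log2 fold change -0.24 ± 0.19, SE; edgeR FDR = 0.395). The ratio of Col18a1 to Col15a1 reads was 8.71, 7.07 and 5.59 at P10 and 1.86, 1.98 and 1.71 in adults. It was 3.80-fold lower in adults without overlap (exact two-sided permutation p = 0.1, 0.1 adjusted over the 3 ratios).

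Col6a2, a chain of the beaded filaments that surround many cells, was at 336, 386 and 302 CPM at P10 and at 85.8, 68.5 and 83.4 CPM in adults. All adult libraries were lower, by 4.30-fold in the fit (log2 fold change -2.10 ± 0.14, SE; edgeR FDR = 4.05e-08). Col7a1, whose protein forms the anchoring fibrils under stratified epithelia, was at 49.9, 53.8 and 61.2 CPM at P10 and at 7.26, 8.80 and 3.67 CPM in adults. It was 8.80-fold lower (log2 fold change -3.14 ± 0.28, SE; edgeR FDR = 9.60e-07), and between 6.80-fold and 10.6-fold lower when single libraries were left out. The adult values of Col7a1 rest on 65 reads in all, against 982 at P10. The groups of both genes did not overlap.

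The fibril-associated collagens have interrupted helices and decorate the surface of fibrils. None of the 4 with a row passed the test, with log2 fold changes between 0.19 and 0.49, and their difference from the chains that fell was not tested. Col16a1 was at 67.4, 69.5 and 77.7 CPM at P10 and at 96.8, 91.996 and 76.0 CPM in adults, where adult replicate 3 lay among the P10 libraries (log2 fold change 0.30 ± 0.15, SE; edgeR FDR = 0.160). Col9a1, a chain of the collagen that coats cartilage fibrils, was at 36.6, 33.4 and 41.0 CPM at P10 and at 52.9, 46.2 and 52.5 CPM in adults. Its groups did not overlap, but it missed the threshold (log2 fold change 0.45 ± 0.18, SE; edgeR FDR = 0.0685) and its sign turned with library totals alone (-0.034). Col14a1 was at 14.4, 22.9 and 17.7 CPM at P10 and at 15.2, 17.96 and 28.5 CPM in adults, with overlapping groups (log2 fold change 0.19 ± 0.29, SE; edgeR FDR = 0.684). Col9a2 had 53 reads at P10 and 43 in adults (log2 fold change 0.49 ± 0.69, SE; edgeR FDR = 0.646), and its sign turned with library totals alone (-0.017) and with the replicate number as a block (-0.38).

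The remaining chains were scarce. Col8a1, a network collagen of vessel walls and other tissues, was at 4.07, 8.77 and 8.01 CPM at P10 and at 7.26, 6.23 and 4.41 CPM in adults (log2 fold change -0.23 ± 0.49, SE; edgeR FDR = 0.772). Among the chains that span the membrane, Col13a1 had 115 reads at P10 and 25 in adults (log2 fold change -1.42 ± 0.63, SE; edgeR FDR = 0.113) and Col17a1, a component of hemidesmosomes, had 39 and 8 (log2 fold change -1.43 ± 0.88, SE; edgeR FDR = 0.257). Col13a1 passed with library totals alone (edgeR FDR = 0.0209) and without adult replicate 2 (edgeR FDR = 0.0486), and its FDR reached 0.308 without adult replicate 1. Over the 6 fits without 1 library its fold ran from 2.11 to 4.599, and that of Col17a1, which could be tested in 3 of them, from 2.14 to 5.48. Col23a1 had 14 reads at P10 and 1 in adults, an 8.50-fold ratio after scaling (95% interval for counting error from 1.29 to 359), and was not tested. Over the 20 tested chains the groups did not overlap in 12 with lower and 2 with higher adult levels, and among all genes tested in 22.3% and 20%, or 42.3% in either direction.

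Reads of the 25 collagen rows together made up 0.622% ± 0.0958 of gene counts at P10 and 0.180% ± 0.00927 in adults (SD, n = 3). Chains without a row, among them Col4a2, Col6a1 and Col6a3, are missing from these sums, and Col1a2, listed at 0, adds nothing. Shares are therefore of the reads counted here and not of all collagen mRNA. The make-up of these reads shifted toward 1 gene. Col27a1 held 8.78%, 8.91% and 11.7% of collagen reads at P10 and 60.6%, 56.3% and 58.5% in adults, with 95% Wilson intervals at most 1.26 percentage points to either side, for counting error only. Col1a1 held 33.2% ± 0.324 at P10 and 5.44% ± 0.660 in adults, and Col3a1 17.3% ± 1.36 and 3.81% ± 0.769 (SD, n = 3). These are shares of reads, and a longer transcript yields more reads per molecule, so they give no order of abundance among chains. Per read of Col1a1 there were between 0.267 and 0.349 reads of Col27a1 at P10 and between 9.24 and 12.3 in adults, a pair chosen after its values were seen and not tested.

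The share of the fibrillar class as a whole overlapped between the ages. It was 65.9%, 69.8% and 72.2% of collagen reads at P10 and 72.1%, 72.0% and 70.9% in adults. Type IV reads were nearly all of Col4a1, which held 14.3% of collagen reads at P10 where the class held 14.4%. In adults these means were 11.7% and 11.9%. With Col27a1 left out of the sums, fibrillar chains held 65.98% ± 3.04 at P10 and 31.7% ± 3.77 in adults (SD, n = 3). The share of type IV chains then rose from 15.97% ± 1.51 to 28.7% ± 0.918, and that of the other collagens from 18.05% ± 1.55 to 39.5% ± 2.87. These are shares of a smaller pool, since collagen reads without Col27a1 were 0.561% of gene counts at P10 and 0.0745% in adults (means). The ratio of fibrillar to type IV reads went from between 4.11 and 5.60 at P10 to between 5.89 and 6.20 in adults with Col27a1. Without Col27a1 it went the opposite way, from between 3.56 and 4.70 to between 0.990 and 1.30. Leaving out Col27a1 was chosen after its values were seen, and these shares and ratios of sums carry no test.

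**Figure D3:**
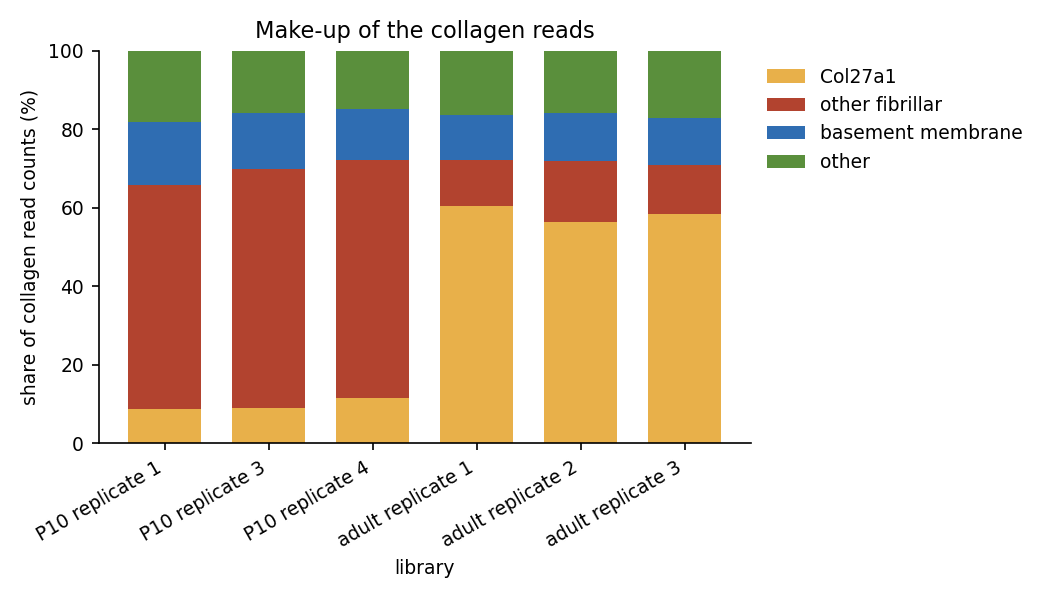
Share of the read counts of the 25 collagen rows (percent, from 0 to 100) in each of the 6 libraries, stacked for Col27a1, the other fibrillar chains, type IV chains and the other collagens. Col27a1 fills between 8.78% and 11.7% of the bars at P10 and between 56.3% and 60.6% in adults, while the other fibrillar chains shrink.

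Directions of the 10 called chains did not depend on the scaling between libraries. With library totals alone, a scaling that moved the median over all genes by -0.49 (log2), Col27a1 was still 1.73-fold higher (edgeR FDR = 8.09e-04) and Col1a1 21.2-fold lower. The signs of all 4 fibril-associated chains, which did not pass, turned there, to -0.034 for Col9a1, -0.017 for Col9a2, -0.31 for Col14a1 and -0.19 for Col16a1. Col15a1 then passed as lower (log2 fold change -0.74, edgeR FDR = 0.0108), as did Col13a1, so that 11 chains were lower, where 35.7% of all genes were lower and 3.39% higher.

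**Figure D4:**
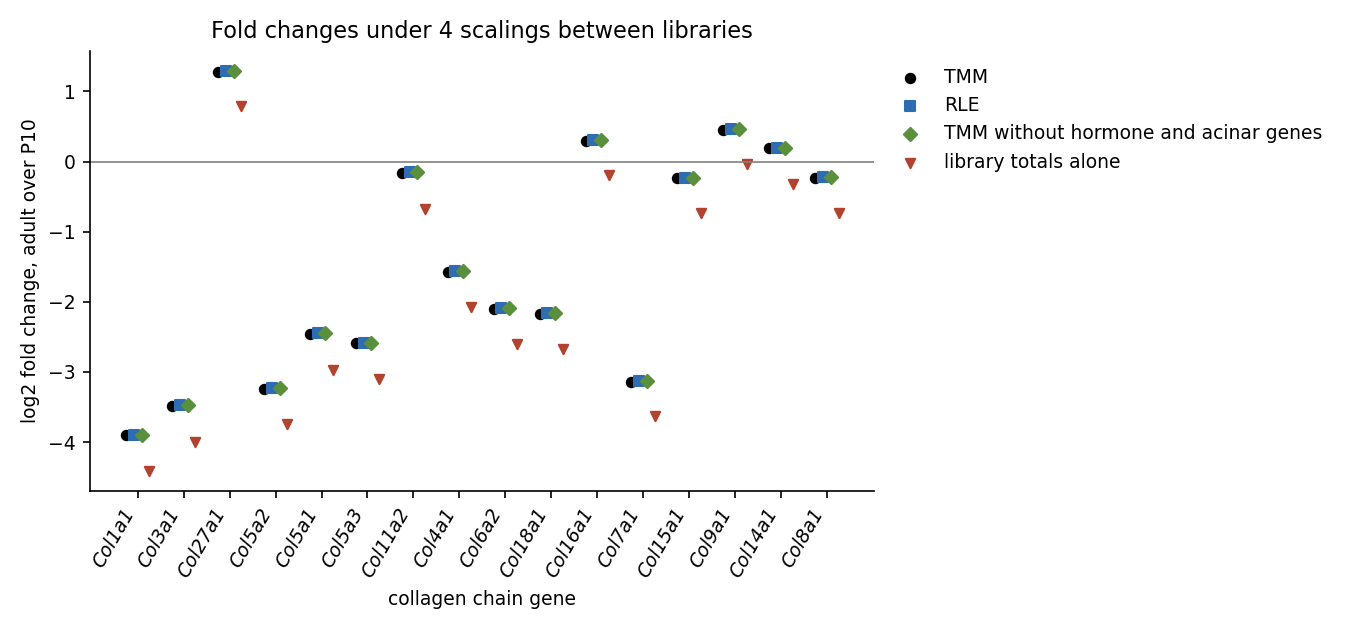
Log2 fold change of adult over P10 (vertical axis) for the 16 chains averaging at least 5 CPM, under TMM factors, relative log expression (RLE) factors, TMM factors without hormone and acinar genes, and library totals alone. The first 3 scalings nearly coincide, library totals alone lie lower, and Col27a1 stays above 0 in all of them.

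Promoter sequences were compared because chains of 1 class moved in opposite directions. RefSeq's promoter table (GRCr8) held 20 of the 25 chains, including Col27a1 and 6 of the 9 chains that fell. Shown are the 250 bases before the start of Col27a1, the chain that rose, and of the chain with the smallest p among the fallers of each class that the table held. They are Col27a1 (chr5:81662658-81662907, plus strand), Col5a2 (chr9:55090152-55090401, minus strand), Col4a1 (chr16:84885347-84885596, plus strand) and Col18a1 (chr20:11473395-11473644, plus strand). Capitals mark matches to any of 4 motifs searched on both strands, the CCAAT box (CCAAT), the TATA box (TATAAA), the GC box (GGGCGG) and the AP-1 motif (TGANTCA). Matches of different motifs were counted separately and may overlap.
Col27a1: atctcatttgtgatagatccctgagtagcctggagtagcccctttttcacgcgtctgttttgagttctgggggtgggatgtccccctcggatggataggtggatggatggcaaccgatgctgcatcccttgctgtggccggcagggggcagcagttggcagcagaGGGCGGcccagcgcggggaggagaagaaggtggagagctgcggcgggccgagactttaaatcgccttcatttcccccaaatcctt
Col5a2: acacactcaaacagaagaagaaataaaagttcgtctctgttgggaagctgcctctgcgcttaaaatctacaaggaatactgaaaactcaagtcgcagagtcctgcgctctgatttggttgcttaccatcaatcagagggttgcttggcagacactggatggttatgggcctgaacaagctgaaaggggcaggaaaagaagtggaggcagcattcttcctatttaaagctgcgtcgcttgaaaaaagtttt
Col4a1: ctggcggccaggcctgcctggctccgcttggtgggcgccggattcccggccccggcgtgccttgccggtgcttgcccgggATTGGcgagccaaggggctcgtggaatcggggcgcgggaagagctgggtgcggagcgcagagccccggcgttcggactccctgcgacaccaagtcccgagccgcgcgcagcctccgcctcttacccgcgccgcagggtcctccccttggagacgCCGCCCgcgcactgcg
Col18a1: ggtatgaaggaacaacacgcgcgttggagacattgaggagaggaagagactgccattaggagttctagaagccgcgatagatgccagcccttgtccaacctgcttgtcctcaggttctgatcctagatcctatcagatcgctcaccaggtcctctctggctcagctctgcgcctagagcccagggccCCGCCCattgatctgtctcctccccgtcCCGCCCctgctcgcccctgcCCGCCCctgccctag
The GC box, bound by Sp1 and related factors, was found in the windows of Col27a1, Col4a1 and Col18a1, in the last with 3 matches, and in none of those 250 bases of Col5a2. Among the chains with a table entry it was found in 12 of 20, among the fallers in 5 of 6, and among all 33469 promoters in 30.5%. The CCAAT box was found in 5 of 20 chains, against 34.0% of all promoters, and of the windows shown Col4a1 held 1. The TATA box was found in 3 of 20, Col1a2, Col13a1 and Col17a1, against 12.9%, and the AP-1 motif in none, against 6.34%. Col27a1 held a GC box, as did 5 of the 6 fallers with an entry. It held no CCAAT box, which 2 of those 6 held. Neither Col27a1 nor those 6 held a TATA box or an AP-1 motif. The fallers Col1a1, Col3a1 and Col6a2 had no entry. Whether these motifs bear on the direction of change was not tested. A match is a run of letters and not a measured site of binding.

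Among genes that fold, cut, cross-link, bind and break down collagen, those that passed were lower in adults except P4hb and Timp1. Counts below are of the tested genes of each list and are to be read beside 13.8% lower and 12.5% higher among all genes tested. Of 15 collagen folding and secretion genes, 7 were lower and 1 was higher. Serpinh1, the collagen chaperone HSP47, went from 627 ± 93.4 to 80.5 ± 16.03 CPM (SD, n = 3), 7.83-fold lower (edgeR FDR = 4.82e-09). Plod2, a lysyl hydroxylase, was 14.1-fold lower and Fkbp10, a prolyl isomerase, 5.34-fold lower. P4hb, protein disulphide isomerase, which is a subunit of collagen prolyl hydroxylase but also folds other secreted proteins, rose 1.64-fold from 679 ± 49.8 to 1110.4 ± 95.7 CPM (SD, n = 3; edgeR FDR = 2.83e-04). With library totals alone P4hb did not pass, and 12 folding genes were lower and 0 higher.

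Of 11 genes of procollagen cleavage and cross-linking, 5 were lower and none was higher. Loxl1, a lysyl oxidase-like enzyme, fell 4.70-fold, Pxdn, peroxidasin, which links type IV collagen, fell 3.37-fold, and Bmp1, the procollagen C-proteinase, fell 2.67-fold. Of 11 proteins that sit on fibrils, 9 were lower and none was higher, with Postn, periostin, 8.02-fold, Sparc, a collagen-binding glycoprotein, 6.54-fold and Bgn, biglycan, 7.57-fold lower. From the latter list Dcn, Dpt and Lum are also among the fibroblast markers.

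Of 8 partners of type IV collagen in basement membranes, 7 were lower. No row was found for the other listed partners, Lama2, Lama3, Lama4, Lamb1, Nid1 and Hspg2. The laminin chains Lama5, Lamb3 and Lamb2 fell 3.75-fold, 4.78-fold and 3.23-fold. Among 6 collagen receptors, 1 was lower, a share near that of all genes. It was Mrc2, an uptake receptor for collagen fragments, which fell 5.72-fold from 29.9 ± 4.99 to 5.11 ± 0.955 CPM (SD, n = 3). Ddr1, a receptor kinase for collagen, was at 132 and 133 CPM (log2 fold change 0.01, edgeR FDR = 0.962), and it was chosen after its values were seen. Of 10 genes of collagen breakdown, 6 were lower and 1 was higher. Mmp2, a gelatinase, fell 6.70-fold and Mmp14, its membrane-bound activator, 5.79-fold, and Timp2, an inhibitor of both, 2.87-fold. Timp1, another inhibitor, rose 1.34-fold (edgeR FDR = 0.0489) with overlapping groups, and it did not pass with library totals alone.

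Of the cell type markers, those of fibroblasts, pericytes and ducts were mostly lower in adults, while those of acinar cells and leukocytes were not. Of 14 fibroblast and stellate cell markers tested 12 were lower, against 13.8% of all genes, and none was higher. Their median log2 fold change was -2.37. Acta2 and Vim, the members of that list with the smallest p, fell 12.5-fold and 5.16-fold. Thy1 (log2 fold change -0.16, edgeR FDR = 0.839) and Pi16 (log2 fold change -0.50, edgeR FDR = 0.496) did not pass. Of 6 pericyte markers 5 were lower (median -1.55), of 12 endothelial markers 5 (median -0.67), of 4 Schwann cell markers 2 (median -1.31) and of 6 duct markers 5 (median -2.40). Pdgfrb is in both the fibroblast and the pericyte list. The pericyte marker that did not pass was Rgs5 (log2 fold change 0.06, edgeR FDR = 0.959). The defining endothelial markers Pecam1 (18.7 ± 3.60 CPM at P10 and 15.8 ± 6.26 CPM in adults, SD, n = 3) and Cdh5 (14.2 ± 2.90 and 17.99 ± 1.27 CPM) did not pass, with edgeR FDRs of 0.626 and 0.379. The endothelial markers that fell were Cldn5 (423 reads at P10 and 1 in adults), Egfl7 (3.22-fold), Emcn (2.40-fold), Eng (1.49-fold) and Tie1 (1.64-fold), named after their values were seen. Of 12 acinar markers 5 were lower and 4 higher, and of 9 leukocyte markers 1 was lower (C1qb, edgeR FDR = 0.0490), and none with RLE factors. The summed level of the endothelial markers was between 368 and 508 CPM at P10 and between 213 and 281 CPM in adults. The part of these cell types in the collagen results was not tested.

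**Figure D5:**
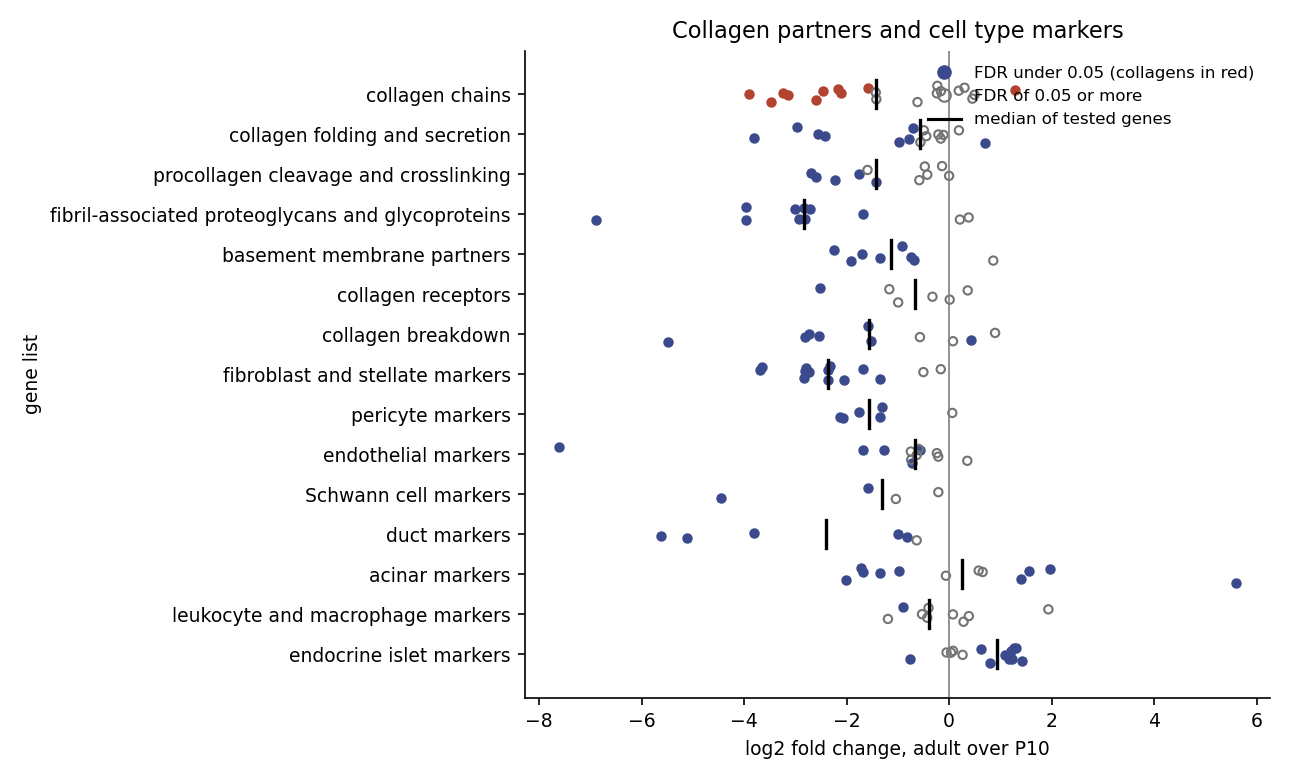
Log2 fold change of adult over P10 (horizontal axis) of the tested genes of each list, 1 point for each gene, filled for an edgeR FDR under 0.05, with a bar at the median of the tested genes. Collagen chains (median -1.43) and fibroblast markers (median -2.37) lie mostly left of 0, and endocrine markers (median 0.94) mostly right of it.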

How the data were processed

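The deposited values are raw read counts per gene symbol, 1 HTSeq file for each library, per the file headers and counter rows. Tools named in the submitters' processing notes are HTSeq, TopHat2 (2.0.10), Bowtie2, edgeR and DESeq, the last pair without a role, and the build named there is rn5. Libraries were single-end and not strand-specific, per the labels' protocols, so reads of overlapping genes could not be told apart. A joint table of the series was not used. HTSeq's 5 counter rows entered neither library sizes nor tests (ambiguous reads were between 0.319% and 0.474%, and reads without a unique alignment between 15.1% and 27.7%, of counts and counters).

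All genes were tested with edgeR 4.0.16 in R 4.3.3 (filterByExpr with a minimum count of 10 and total of 15, TMM factors, quasi-likelihood test, age group as the only term, Benjamini-Hochberg FDR over 10124 genes, threshold 0.05), a script also tested on simulated data. Each standard error is the size of the log2 fold change over the root of its F statistic. A named collagen averaged at least 5 CPM or had few reads. From each partner list the rule took up to 3 called genes with the smallest p in the main direction and 1 in the other, and from a marker list up to 2 defining markers. Other markers were named after their values were seen. Ratios needed at least 10 reads of both genes in every library. Alternatives were RLE factors, library totals, TMM without hormone and acinar genes, DESeq2 1.42.0, other filters, the replicate number as a block and leaving out each library. Replicates differed by more than sampling noise. The members and lists were chosen with earlier results of these data known.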

Additional observations from a re-analysis of the deposited data

How the results depend on the processing

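The calls of the 10 collagen chains kept their direction and their side of the threshold under each alternative run. Without single libraries, between 1040 and 1266 genes were lower and between 923 and 1262 higher, with 9 to 10 collagen chains lower and 1 higher, of them 5 fibrillar chains lower and 1 higher, 1 type IV chain lower and 0 higher, and 3 to 4 other collagens lower and 0 higher. The log2 change of the ratio then ran from 0.34 to 0.50 for Col3a1 over Col1a1, from -0.95 to -0.51 for Col5a2 over Col5a1, from -2.09 to -1.77 for Col18a1 over Col15a1 and from 0.20 to 0.43 for fibrillar over type IV reads. The change in share ran from 0.702 to 3.85 percentage points for fibrillar, from -3.26 to -1.69 for type IV and from -0.590 to 0.986 for other collagens. The log2 fold change of Col11a2 ran from -0.38 to 0.069, turning without P10 replicate 4 (0.018) and adult replicate 1 (0.069), and that of Col14a1 from -0.14 to 0.39, turning without adult replicate 3 (-0.14). Neither gene was called, and the cause was not tested.

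With library totals alone 3612 genes were lower and 343 higher (1394 and 1265 with TMM factors), so that 8.67% of calls were rises against 47.6%. There 5 other collagens were lower, 12 folding genes lower and 0 higher, 8 cleavage and cross-linking genes lower, 5 receptors lower and 0 breakdown genes higher, and the log2 fold changes of Col9a1, Col9a2, Col14a1 and Col16a1 turned to -0.034, -0.017, -0.31 and -0.19. With Col27a1 left out, an alternative chosen after seeing the data, the fibrillar to type IV ratio changed by -1.91 on the log2 scale instead of 0.32. The shares then changed by -34.2 (fibrillar), 12.8 (type IV) and 21.5 (other) percentage points instead of 2.40, -2.49 and 0.0968.

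Replicate numbers 1 and 3 occur in both groups, and deviations of same-numbered libraries from their group means were not correlated (-0.024 and -0.005 over 10124 genes). A block by replicate number takes the age difference from the libraries numbered 1 and 3 alone. P10 replicate 4 and adult replicate 2 have no partner of the same number. With this block 729 genes were lower and 679 higher, and 9 chains were lower and 1 higher, while Col9a2, not called, turned from 0.49 to -0.38. With RLE factors 11 instead of 12 fibroblast markers and 0 instead of 1 leukocyte marker were lower. Counts per coding length were not run for want of protein lengths, and 5 of the planned chain ratios could not be given because a chain had no row or under 10 reads. Few reads limit Col2a1, Col4a4, Col11a1 and Col23a1.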
